A study of Saccharomyces cerevisiae with 6 samples.

Results

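Cytochrome c oxidase is the last enzyme of the respiratory chain, and the genes described here are 8 nuclear genes for its subunits in budding yeast: COX4, COX6, COX7, COX8, COX9, COX12, COX13 and COX26 (YDR119W-A). They were taken by symbol as the nuclear subunit genes other than the isoform pair COX5A and COX5B. Each had 1 probe set annotated to it alone, so all 8 were found among the 5656 genes measured, and all 8 were among the 4525 genes tested. The arrays were 3 of a wild-type strain and 3 of a mutant strain labelled H2B 3-32, in which histone H2B is altered and the numbers 3 and 32 are residues of the protein. Both strains were grown in rich medium (YPD) to mid-log phase at an OD600 of 0.5 to 0.7, and total RNA was made into biotin-labelled RNA for 6 single-colour arrays. The labels name no strain background, no plasmid or locus for the H2B gene, and no origin of the replicates, so the cells may be of 1 clone or 1 culture. The p-values below therefore cover the spread between arrays, part or all of which may be technical. Wild-type array 3 also served as the control for further H2B mutants, per its label.

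The oxidase takes electrons from cytochrome c and passes them to oxygen while moving protons across the inner mitochondrial membrane. Its catalytic core, Cox1, Cox2 and Cox3, is encoded in mitochondrial DNA, and the nuclear subunits are made in the cytosol and imported to surround that core. Yeast growing on glucose ferments and holds many respiratory genes down, and activators that include Hap1 and the Hap2/3/4/5 complex link these genes to oxygen, heme and carbon source. Cox4 and Cox6 face the matrix, Cox7, Cox8 and Cox9 are small membrane-spanning subunits, Cox12 faces the intermembrane space, and Cox13 is a peripheral subunit that is not needed for assembly. Cox26 is a very small protein found with the oxidase in its supercomplexes with complex III.

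The signals of these genes differed between the strains in 2 directions, though none of the 8 passed the test of the group alone. COX26 had a higher signal on every mutant array than on any wild-type array, as did 2.65% of tested genes. On each wild-type array its signal lay under the 20th percentile of the 5656 genes (12 against 16.7, 10.2 against 17.1 and 13.9 against 22.4). At so low a level the size of the COX26 log2 difference, given below, rests on the offset. Its mutant signals were low too, at 30, 33 and 24.7 against 20th percentiles of 15.8, 16.9 and 22.8. The medians of all probe sets other than controls on those arrays were 28.7, 30.2 and 40.5. The other 7 genes had lower signals in the mutant in all 3 same-numbered pairs of arrays, as did 27.4% of all tested genes. Their mean log2 differences over the pairs were -0.20 to -0.42. HTB1, which encodes H2B, had signals of 1371.8, 1138.4 and 1191 in wild type and 16.1, 19.4 and 15.2 in the mutant, which sets the mutant arrays apart from the wild-type arrays as labelled. The test of the group alone (limma, Benjamini-Hochberg adjustment over the 4525 genes, threshold 0.05) passed no gene higher and 1 gene (0.0221%) lower, HTB1, and so none of the 8 oxidase genes. At an unadjusted p under 0.05 that test gave 47 genes (1.04%) higher and 66 (1.46%) lower, among them COX26 and COX13. These shares are below what that threshold would pass with no strain difference, so being among these genes is no support by itself. The replicate numbers 1 to 3 in the labels were taken to pair the arrays, though the signals set only replicate 3 apart and do not show how arrays 1 and 2 pair. With the replicate number as a block, 40 genes (0.884%) passed higher and 63 (1.39%) lower, and there COX26 rose, COX4 and COX12 fell, and 5 of the 8 did not pass. COX26 was among the tested genes only through its mutant signals, as set out below, so its calls are given as description. In what follows "rose" and "fell" mean passing with this block, and for each such gene the adjusted p without the block is given as well.

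**Figure D1:**
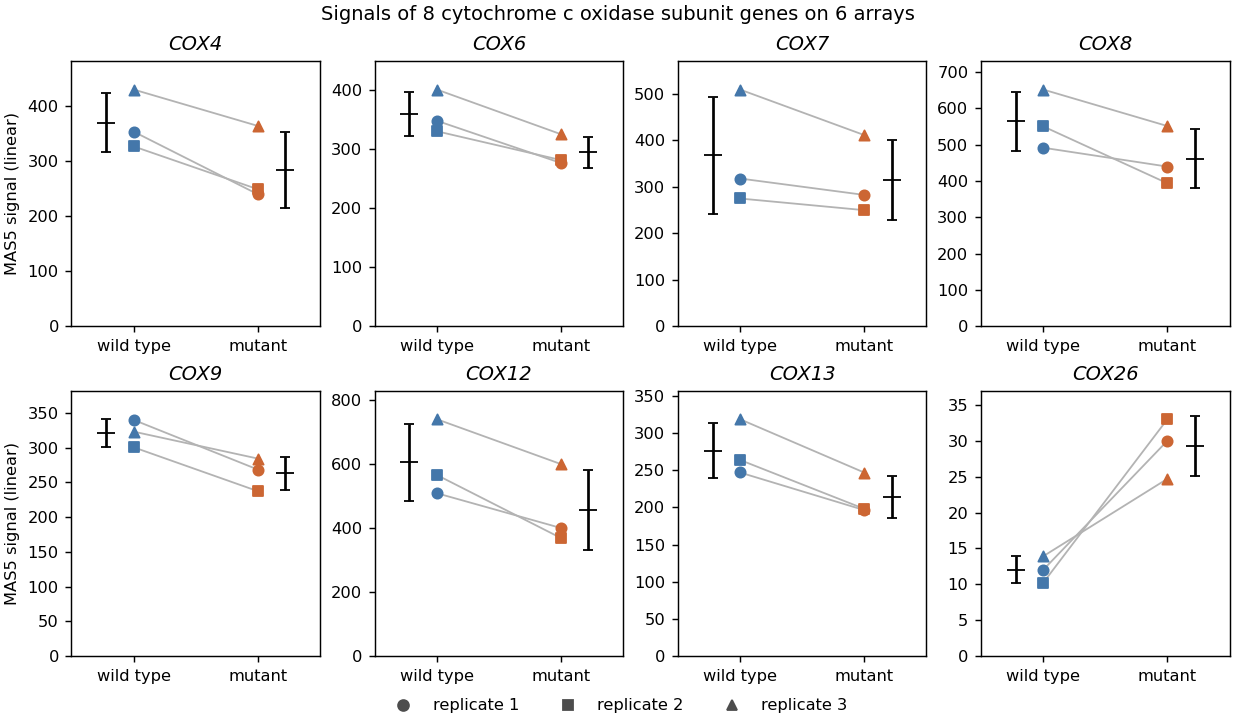
MAS5 signal (linear scale from 0) of each of the 8 genes on the 6 arrays, with same-numbered wild-type and mutant arrays joined and the mean and SD (n = 3) drawn as black bars beside each group. In COX26 every mutant array lies above every wild-type array, and in the other 7 genes each grey line runs downward.

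COX26 gave signals of 12, 10.2 and 13.9 on wild-type arrays 1, 2 and 3 and of 30, 33 and 24.7 on mutant arrays 1, 2 and 3. The groups did not overlap, with the highest wild-type array well below the lowest mutant array, as was the case for 2.65% of tested genes in this direction. The means were 12 ± 1.85 and 29.2 ± 4.2 (SD, n = 3), and the log2 difference after adding the offset of 2.7 was 1.11 ± 0.17 (SE, adjusted p = 0.0029 with the replicate block and 0.442 without it). The difference was 1.15 in pair 1, 1.47 in pair 2 and 0.72 in pair 3. In pair 3, the smallest of the differences, wild-type array 3 was the highest of its group and mutant array 3 the lowest of its group. Without replicate 2, the pair with the largest difference, the adjusted p with the block was 0.0617 and the log2 difference 0.94.

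COX26 entered the test through the mutant arrays. The filter left out genes with a mean log2 level under 4.43. COX26 averaged 3.87 in wild type and 4.99 in the mutant, and its mean over all 6 arrays, 4.43, lay just inside, with only 2 tested genes below it. A gene at that level with a flat signal like the wild type's would not have been tested. With an offset of 1 or a filter at the 40th percentile the gene was left out, while with no filter its adjusted p was 0.0087 with the block. Detection calls were not used here, so whether the wild-type signal is above background is not known from these values. An offset of 16 in place of 2.7 lowered the log2 difference to 0.69, so the size of the change at this signal rests on the offset.

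The genes next to COX26 in the reference gene order were looked at after its value was seen. VBA4, upstream, had a log2 difference of -0.02 (adjusted p = 0.951 with the block), and TRM1, downstream, of 0.01 (adjusted p = 0.966). Their signals were 107.7 to 243.7 and 220.2 to 272.8 over the 6 arrays, with overlapping groups in both. Neither passed, with or without the block.

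Cox4 is the zinc-binding subunit on the matrix side and is needed for the enzyme to assemble. COX4 signals were 353.7, 326.9 and 430.1 in wild type and 239.9, 249 and 364 in the mutant. The groups overlapped, and mutant array 3 lay above wild-type arrays 1 and 2. Within pairs the log2 difference was -0.55, -0.39 and -0.24, and COX4 fell by 0.39 ± 0.10 on the log2 scale (SE, adjusted p = 0.0481 with the replicate block and 0.9998 without it). The adjusted p was close to the threshold, and without replicate 1, 2 or 3 the call was lost each time. With the block it was also lost with no filter on dim genes (adjusted p = 0.0712) and with no trend in the variance prior (adjusted p = 0.129).

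Cox12 is the subunit on the intermembrane-space side. COX12 signals were 509.6, 566.7 and 741.1 in wild type and 400.6, 369.2 and 600.5 in the mutant, again with mutant array 3 above wild-type arrays 1 and 2. The log2 difference was -0.35, -0.61 and -0.30 in the 3 pairs, and COX12 fell by 0.42 ± 0.10 (SE, adjusted p = 0.0402 with the block and 0.9998 without it). Its wild-type mean was 1.33 times its mutant mean, the widest ratio among the 7 genes with lower signals. The call was lost without replicate 2 and without replicate 3. With the block it was also lost with no filter on dim genes (adjusted p = 0.0606) and with no trend in the variance prior (adjusted p = 0.109).

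COX13 came nearest to the threshold among the genes that did not pass. Its signals were 247, 263.9 and 318.7 in wild type and 196.4, 198.1 and 246.9 in the mutant, so the groups did not overlap, though the highest mutant array and the lowest wild-type array were almost equal. The 3 pairs gave nearly the same log2 difference, -0.33, -0.41 and -0.36, the narrowest range of the 8 genes. The mean was -0.37 (adjusted p = 0.0539 with the block and 0.9998 without it).

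COX6 and COX9 also had groups that did not overlap, with smaller differences. COX6, for a matrix-side subunit, gave 348.1, 330.3 and 400.9 in wild type and 276.5, 281.5 and 325.2 in the mutant. COX9, for a small membrane subunit, gave 339.8, 300.4 and 322.9 against 268.3, 237.2 and 284.1. Their log2 differences were both -0.29, with adjusted p-values of 0.12 and 0.126 with the block, and neither passed. With COX13 they made 3 of the 8 oxidase genes lower in the mutant with no overlap, against 4.99% of all tested genes in this direction.

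COX8 and COX7, which also encode small membrane subunits, had overlapping groups. COX8 signals were 492, 550.8 and 652.2 in wild type and 440, 394 and 551.6 in the mutant, and its log2 difference of -0.29 came mostly from pair 2, at -0.48 against -0.16 and -0.24 (adjusted p = 0.137 with the block). COX7 signals were 318.2, 275.2 and 509.6 in wild type and 282.9, 250.1 and 411.6 in the mutant. COX7 had the smallest difference of the 8, -0.20 (adjusted p = 0.275 with the block), with a 95% interval not adjusted for multiple testing of -0.40 to -0.01. In the fit of the group alone without wild-type array 3 the COX7 difference was 0.056, so its sign there rested on that array.

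**Figure D2:**
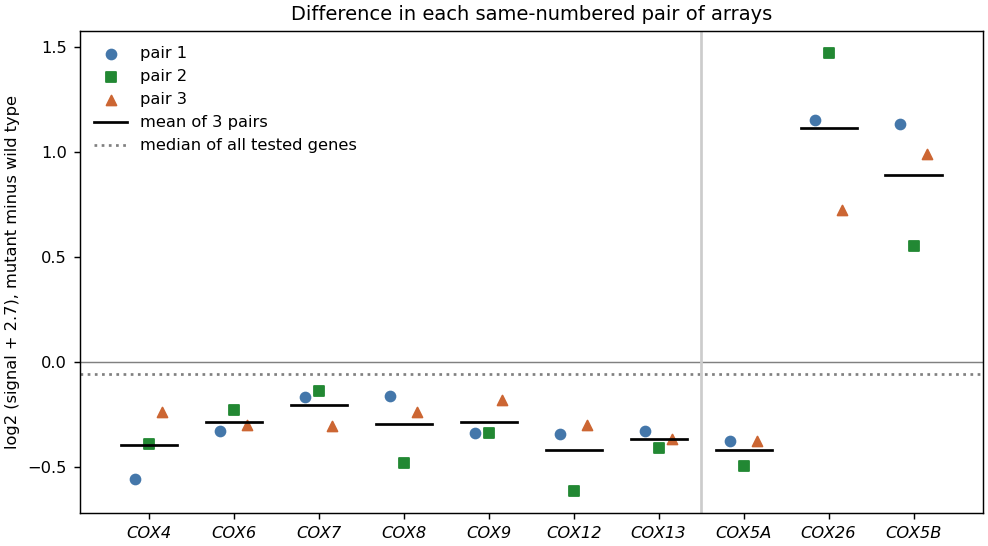
Difference in log2 (signal + 2.7), mutant minus wild type, in each same-numbered pair of arrays (symbols) and their mean (bar), with a dotted line at the median of the tested genes, -0.06. The 7 genes on the left lie below 0 in every pair, between -0.14 and -0.61, and right of the vertical line COX5A lies among them while COX26 and COX5B lie above 0.

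All 7 of these genes were lower in the mutant in pair 1, pair 2 and pair 3, with medians of -0.33, -0.39 and -0.30. Among all tested genes the medians were -0.06, -0.08 and -0.03, and 27.4% were lower in all 3 pairs. The 7 leave out COX26, the member that was higher, so the count to set beside that share is 7 of 8. With arrays 1 and 2 paired the other way, COX7 would not be lower in every pair. Its mutant array 1 (282.9) lay above its wild-type array 2 (275.2). The median over the 7 genes of the mean difference was -0.29, and 9.35% of the tested genes had a difference at or below that value. Over all 8 genes the median was -0.29 as well. The direction did not depend on the scaling of the arrays: under quantile normalization the 7 genes had a median of -0.32 and under scaling to a common median of -0.26, with all 7 lower in all 3 pairs under both. COX26 minus the mean of the other 7 was 1.47, 1.84 and 1.00 in pairs 1, 2 and 3. These values had to be above 0, since in every pair COX26 was above 0 and the 7 below it. They are description only, as COX26 was tested only through its mutant signals.

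Replicate 3 stood apart in both strains and touched most of these genes. Its spiked hybridisation controls averaged 102 and 98.8 on the wild-type and mutant arrays, against 345 to 455 on the other 4, and its median signals were 40 and 40.5 against 28.7 to 31. COX7 was higher on array 3 than on the mean of arrays 1 and 2 by a log2 of 0.78 in wild type and 0.62 in the mutant, several times its strain difference. For COX12 these values were 0.46 and 0.64, for COX4 0.34 and 0.57, for COX8 0.32 and 0.40, for COX13 0.32 and 0.32, and for COX6 0.24 and 0.22. COX9 was the exception among the 7, at 0.02 and 0.17, and COX26 went opposite ways in the strains, at 0.27 in wild type and -0.32 in the mutant. The standard error of the COX7 difference was 0.27 with the group alone and 0.09 with the replicate block, and those of COX12 were 0.23 and 0.10. With a batch term for replicate 3, COX26 passed higher and COX4, COX12 and COX13 passed lower (adjusted p = 0.0016, 0.0369, 0.0281 and 0.0399). Within replicates 1 and 2 alone, with no block, COX26 passed (log2 1.31, adjusted p = 0.0024) and none of the other 7 did. COX26 was tested only through its mutant signals, so its passes here are description and do not rank it above the other 7. Replicate 3 alone has 1 array per strain and allows no test.

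**Figure D3:**
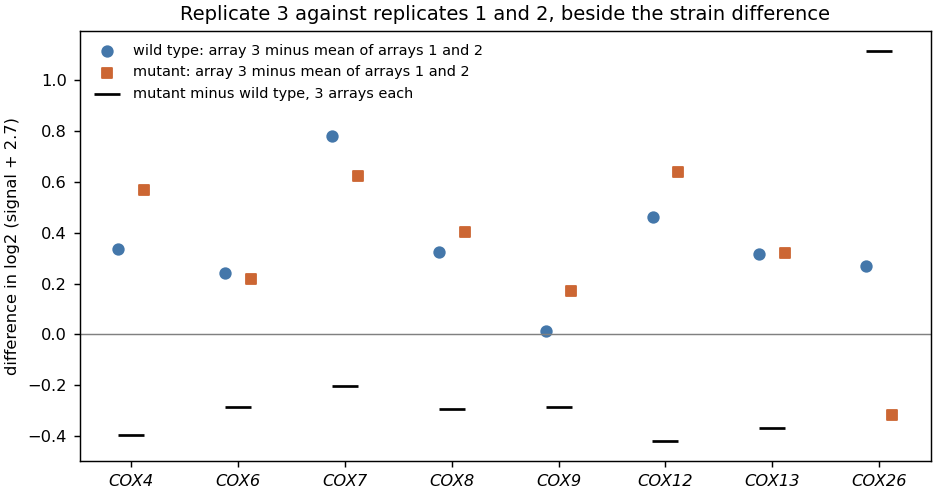
For each of the 8 genes, the difference in log2 (signal + 2.7) between array 3 and the mean of arrays 1 and 2 within wild type (circles) and within the mutant (squares), with the strain difference as a bar. For COX7 the replicate difference reaches 0.78 against a strain difference of -0.20, while for COX26 the strain difference is 1.11 against replicate differences of 0.27 and -0.32.

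The subunit that these genes leave out, Cox5, is made in an aerobic form from COX5A and a low-oxygen form from COX5B. COX5A signals were 314.9, 336 and 393.5 in wild type and 241.8, 237.2 and 302.5 in the mutant, and COX5A fell by 0.42 on the log2 scale (adjusted p = 0.0314 with the block and 0.9998 without it). COX5B rose, with 13.4, 20.6 and 27.2 against 32.6, 31.4 and 56.6 (log2 difference 0.89, adjusted p = 0.008 with the block and 0.9998 without it). Both groups of arrays were apart for each gene, as they were for 4.99% of tested genes in the lower direction and 2.65% in the higher. COX5A therefore sat with the 7 genes with lower signals, and COX5B, like COX26, had a low wild-type signal and a higher mutant one.

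Of the 3 core subunits encoded in mitochondrial DNA, only COX1 was bright enough to be tested. COX1 signals were 963.1, 936.8 and 871.7 in wild type and 810.8, 968.4 and 713.4 in the mutant, overlapping between strains (log2 difference -0.16, adjusted p = 0.442 with the block). Other probe sets annotated to COX1 alone were dim on every array, from 9.3 to 18.1, so the level depends on the probe set. COX2 (1.9 to 6.8) and COX3 (10.7 to 21.1) were left out as dim.

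Cytochrome c, the electron donor of the oxidase, is encoded by CYC1 and, in a second form, by CYC7. CYC1 fell, from 681.8, 710.4 and 787.5 to 465.8, 511.3 and 592.8 (log2 difference -0.48, adjusted p = 0.0149 with the block and 0.9998 without it). CYC7 was left out as dim, with signals of 11.8, 11.1 and 16.1 in wild type and 15.3, 16.6 and 28.6 in the mutant. RCF1 and RCF2 encode factors of the supercomplexes that hold the oxidase, and neither passed. RCF1 was lower in the mutant without overlap, as were 4.99% of tested genes. Its signals were 118.2, 116.4 and 130.5 against 101.9, 93.2 and 94.3 (log2 difference -0.33, adjusted p = 0.127 with the block). RCF2 had a log2 difference of 0.17 (adjusted p = 0.366), and RCF3 had no probe set of its own in the annotation used.

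Assembly of the oxidase needs factors for copper, heme A and membrane insertion, and of 25 tested genes of this kind 1 fell, none rose and 24 did not pass, beside 1.39% of all tested genes that fell. The one that fell was COA1, whose product acts early in the assembly of Cox1, with signals of 71.6, 102.5 and 112.2 against 46.8, 56.2 and 91.5 (log2 difference -0.57, adjusted p = 0.0316 with the block and 0.9998 without it). The 25 had a median log2 difference of -0.08, near the -0.06 of all tested genes, and ranged from -0.57 to 0.34. They were lower in all 3 pairs in 11 of 25 cases, against 27.4% of all tested genes. Among 9 tested genes listed for RNA processing and translation in mitochondria, not all of them specific to the core subunits, none passed, and the median was -0.11. The smallest p-values there belonged to PET54, an activator of COX3 translation (log2 difference -0.36, adjusted p = 0.227 with the block), and PET123, for a mitochondrial ribosomal protein (-0.27, adjusted p = 0.31).

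Complex III hands electrons to cytochrome c. Of its 9 tested subunit genes 3 fell, 0 rose and 6 did not pass, 8 of 9 were lower in all 3 pairs, and the median log2 difference was -0.28. Over all tested genes 1.39% fell and 27.4% were lower in all 3 pairs. CYT1, for cytochrome c1, had a log2 difference of -0.57, RIP1, for the Rieske iron-sulfur protein, of -0.51, and QCR6 of -0.38 (adjusted p = 0.0132, 0.0111 and 0.0454 with the block, and 0.9998 without it for each). Among 14 ATP synthase genes 1 fell, ATP18 (log2 difference -0.41, adjusted p = 0.0332 with the block and 0.9998 without it), 8 were lower in all 3 pairs, and the median was -0.18. All 9 and all 14 had a difference below 0, as did 63% of all tested genes. Whether the oxidase genes differ from these lists was not tested.

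**Figure D4:**
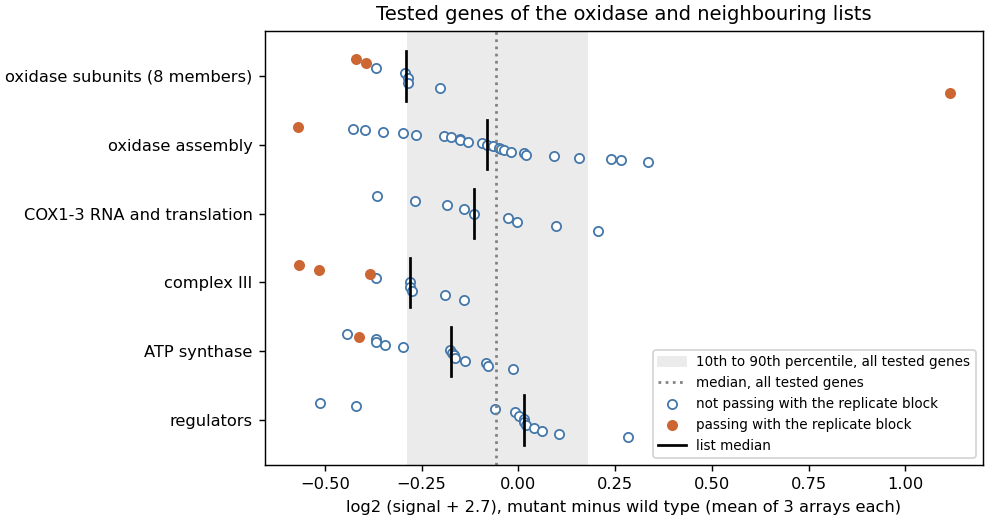
Difference in log2 (signal + 2.7), mutant minus wild type (3 arrays each), of every tested gene in the lists of oxidase subunits, assembly factors, RNA and translation factors, complex III, ATP synthase and regulators. Filled points passed with the replicate block, black bars are list medians, and COX26 at 1.11 stands alone on the right among the genes drawn. The medians of oxidase and complex III are -0.29 and -0.28. COX5A and COX5B are not drawn, and COX5B had a difference of 0.89.

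None of 12 tested genes for regulators of respiratory and low-oxygen genes passed, and their median log2 difference was 0.01. HAP4, for the activating subunit of the Hap complex, came closest: its signals were 127.8, 175.8 and 72.3 in wild type and 98.4, 89.5 and 61.7 in the mutant (log2 difference -0.51, adjusted p = 0.0623 with the block). Its groups overlapped, and array 3 was the lowest in both strains, opposite to most oxidase genes. HAP2, for a DNA-binding subunit of that complex, had a log2 difference of -0.42 (adjusted p = 0.14 with the block). HAP1, for the heme-responsive activator, had one of 0.28 (adjusted p = 0.231 with the block), from a probe set whose name marks possible signal from related sequences. ROX1, for the repressor of low-oxygen genes, was at 0.01 (adjusted p = 0.973) and was named after its value was seen.

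Likeness to other genes was measured as the Euclidean distance between the 3 paired log2 differences, over all tested genes outside the 8. Nearest to COX26 were TIR1 (distance 0.34), a cell wall mannoprotein gene, BNA4 (0.57) of NAD synthesis, QDR2 (0.63), a drug transporter gene, ANB1 (0.65), for the low-oxygen form of eIF5A, and CAR2 (0.70) of arginine breakdown. Unlike COX26, TIR1 had a substantial wild-type signal, at 233.4, 251.3 and 339.6 against 655, 671.4 and 596.2, and in the mutant its array 3 was also the lowest. Nearest to the mean of the other 7 were ATX2 (0.03), TIM8 (0.03), ELA1 (0.06), COQ3 (0.06) and FRA1 (0.07). TIM8 encodes a chaperone of mitochondrial protein import and COQ3 an enzyme of coenzyme Q synthesis, and none of these 5 genes passed. With 3 differences a gene, such distances are a description only.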

How the data were processed

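Each deposited value is a linear intensity of 1 probe set, which the submitters' processing notes credit to MAS5; the version and settings are not given in the sources here, and detection calls were not used. The 6 columns had 2% trimmed means of 125.1 to 125.2 and were used as deposited. Of 9335 probe sets, 60 controls, 328 with several genes and 2443 with none were left out. The remaining 6504 gave 5656 genes, all found by gene identifier in the R64 reference table, with the brightest probe set for each gene. The offset of 2.7, the 10th percentile of non-control values, was added before log2, which understates changes of dim genes. Genes whose mean lay below the 20th percentile (1131) were left out.

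The strain comparison used limma 3.58.1 under R 4.3.3 (eBayes with a trend), two-sided, with Benjamini-Hochberg adjustment over 4525 genes and a threshold of 0.05. The primary fit held the group only, and a second fit added the replicate number as a block. Deviations from group means of same-numbered arrays correlated at 0.52, 0.59 and 0.86 across genes, and the numbers in the labels were taken to pair the arrays. Differently numbered arrays 1 and 2 correlated as well (0.51 and 0.65, the latter above 0.52 and 0.59). The correlations thus set replicate 3 apart and do not show how arrays 1 and 2 pair. The fit with the block leaves 2 residual degrees of freedom against 12.5 for the variance prior, so its calls lean on that prior. Alternatives changed the block, scaling, offset, filter, variance prior, choice of probe set and the arrays used. The steps were tested on simulated data. The number of arrays limits the precision. The named genes were the 8 members, small related lists in full, the passing members of longer lists (or the smallest p-values), and the 5 nearest genes by paired differences. The members and lists were chosen with earlier results of these data known. No sequences were used here.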

Additional observations from a re-analysis of the deposited data

How the results depend on the processing

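HTB1 and its direction passed under every alternative run, with a log2 change of -5.25 to -6.13. Without a block 0 of the 8 oxidase genes passed, except with replicate 3 as a batch (1 higher, 3 lower) and within replicates 1 and 2 (1 higher, 0 lower). The replicate block gave 1 higher (COX26, which entered the test only through its mutant signals) and 2 lower. Under it, settings other than leaving out a pair kept 1 higher except offset 1 and the 40th percentile filter (0, COX26 not tested), and kept 2 lower except for the robust prior (3), no filter (0) and no trend (0). Leaving out 1 pair under the block gave 0 to 1 higher and 0 to 3 lower. Over all genes, the group alone gave 0 higher and 1 lower. The replicate block gave 40 and 63, the batch block 45 and 74, replicates 1 and 2 only 20 and 33, and leaving out single arrays 0 to 1 higher and 1 lower. With the replicate block, quantile normalization gave 86 and 104, a common median 101 and 115, offset 1 42 and 67, offset 16 40 and 63, no filter 36 and 43, the 40th percentile filter 26 and 46, no trend 27 and 29, the robust prior 73 and 148, the mean of probe sets 46 and 69, and leaving out pairs 1, 2 and 3 in turn 71, 12 and 8 higher and 136, 13 and 7 lower. The COX7 difference ranged from -0.41 to 0.056 with single arrays left out, and changed sign only without wild-type array 3. The causes were not tested.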
